A study of Mus musculus with 25 samples.

Results

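The 10 genes studied belong to the endoplasmic reticulum (ER) folding machinery and its stress response, and they were followed in mesenchymal lung cells during bleomycin-induced fibrosis and its resolution. They are Hspa5, Hsp90b1, Calr, Canx, Pdia3, Pdia4, Pdia6, Xbp1, Atf4 and Ddit3. The genes were chosen by name, for the secretory load of cells that make matrix, and all 10 of 10 were found among the 47729 genes of the bulk count table and among the 31053 features of the single-cell matrices. All 10 passed the filter on low counts and are among the 15773 genes tested in bulk. The other lists of ER genes, used for context, hold 134 genes.

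Bulk RNA-seq gave 20 libraries, 4 in each of 5 groups. Single-cell RNA-seq gave 5 libraries, 1 per condition and each from 4 pooled mice. All mice carried Col1-CreERT2, a tamoxifen-inducible Cre driven by the Col1a1 promoter, with a floxed exon of Fas, the death receptor. The groups were naive Col1-CreERT2;Fas fl/fl mice, and mice at 3 and 6 weeks after intratracheal bleomycin that had received either corn oil (Col1-CreERT2;Fas+/+, labelled WT) or tamoxifen (Col1-CreERT2;Fas-/-, labelled FasDel). Genotype and tamoxifen are therefore 1 factor, recombination is limited to cells in which the Col1a1 promoter was active during the injections, and ages and any injection of the naive mice were not given in the sources used here. The cells were Lin-, that is, sorted to lack CD45 (hematopoietic cells), CD31 (endothelial cells) and CD326 (epithelial cells). Nothing in the labels says more about the origin of replicates, so p-values measure the spread between these libraries.

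Bulk libraries held 11819700 to 25189096 counts. Fas itself ran from 21.1 to 23.9 CPM (counts scaled to the library total) in naive libraries, from 33.97 to 57.7 in week 3 Fas+/+, from 34.4 to 64.9 in week 3 Fas-/-, from 26.1 to 39.7 in week 6 Fas+/+ and from 35.6 to 46.6 in week 6 Fas-/- libraries. Whole-gene counts do not separate the floxed exon and so check nothing about the deletion. Of the markers of the sorted-out cells, 8 blood endothelial genes summed to 208 to 458 CPM in naive libraries, and none of them was without counts in any group. Replicate 1 of the week 3 Fas+/+ group, with 8033 CPM, and replicate 4 of the week 3 Fas-/- group, with 7263 CPM, stood apart from the others of their groups. These 2 libraries are called the endothelial-rich libraries below, and the fitted changes, list counts, group means and correlations that rest on week 3 are also given without them. At 6 weeks the blood endothelial sums ran from 476 to 1598 CPM in Fas+/+ libraries. In week 6 Fas-/- libraries they ran from 151 to 2456 CPM with a median of 408, so that these libraries were uneven as well. All week 6 libraries were kept in the fits without the 2 libraries. Exact tests, counts of groups that do not overlap and permutation p-values were made with all 20 libraries.

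Proteins that enter the secretory pathway, procollagen among them, fold in the ER lumen with the help of chaperones and of enzymes that form disulfide bonds. When unfolded protein builds up, 3 membrane sensors start the unfolded protein response: IRE1 splices the mRNA of Xbp1, ATF6 is cleaved to a transcription factor, and PERK slows translation while ATF4 is made. ATF6 and XBP1 raise chaperone genes through promoter motifs such as the ER stress element (ERSE), and ATF4 raises genes of amino acid supply and, under strong stress, Ddit3, which encodes CHOP, a transcription factor linked to cell death. In fibrosis, fibroblasts that secrete collagen are a standard example of cells with a heavy folding load.

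The promoters of the members share this element to an unequal degree, and the windows that hold it are shown because they divide the 10 genes. The ERSE was searched on both strands as CCAAT, any 9 bases and CCACG, in the 250 bases before and the 50 after each gene's start (RefSeq, GRCm38.p6). It was found for 5 of the 10 members, against 39 of 32851 promoters (0.119%) and 37 of 27025 genes (0.137%), and for 5 of 109 genes of the other ER lists with a promoter in the table. Each line gives the motif with 30 bases on either side, 5′ to 3′ on the gene's strand, with the match in capitals. The windows are chr2:34771995-34772073 (plus strand), chr10:86705503-86705686 (minus), chr8:84847045-84847123 (minus), chr11:50325770-50325848 (minus) and chr12:17266461-17266539 (plus), in the order of the lines.
Hspa5: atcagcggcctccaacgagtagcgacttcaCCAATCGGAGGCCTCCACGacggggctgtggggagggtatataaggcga
Hsp90b1: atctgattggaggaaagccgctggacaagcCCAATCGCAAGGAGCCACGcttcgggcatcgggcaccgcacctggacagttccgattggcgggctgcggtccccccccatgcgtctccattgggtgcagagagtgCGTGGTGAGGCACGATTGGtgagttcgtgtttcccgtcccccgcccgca
Calr: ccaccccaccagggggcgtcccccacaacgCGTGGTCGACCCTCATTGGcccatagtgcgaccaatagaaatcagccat
Canx: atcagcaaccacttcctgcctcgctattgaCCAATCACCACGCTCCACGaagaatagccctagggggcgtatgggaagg
Pdia6: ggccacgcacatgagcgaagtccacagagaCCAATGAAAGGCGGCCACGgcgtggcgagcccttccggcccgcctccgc

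All 5 windows lie upstream of the RefSeq start, with the first base of the match 65 bases before it in Hspa5, 212 and 107 in Hsp90b1 (which holds 2 matches), 162 in Calr, 145 in Canx and 98 in Pdia6. The Hspa5 window lies inside the bounds of the GENCODE gene model (chr2:34771970-34777547), which starts farther upstream than RefSeq. In Calr and in the match of Hsp90b1 nearer the start, the motif reads on the opposite strand. The promoters of Pdia3, Pdia4, Xbp1, Atf4 and Ddit3 held no exact match in these windows, and inexact matches were not searched. The related motifs ATTGG, any base and CCACG (ERSE-II), TGACGTGG (UPRE, bound by XBP1) and TGATGCAA (CARE, bound by ATF4 with C/EBP factors) were found in none of the 10 and in 0.0365%, 0.676% and 0.895% of all promoters. CARE was found in 5 of 19 promoters of the list of ATF4 and CHOP targets.

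In naive mice the members were expressed at very unequal levels. Per kilobase of exon, Calr, a calcium-binding lectin chaperone, had the highest mean level in naive libraries at 297 CPM per kb, followed by Hspa5 (BiP, the main Hsp70 of the ER and the keeper of the stress sensors) at 211 CPM per kb, Hsp90b1 (GRP94, the Hsp90 of the ER) at 160 CPM per kb and Pdia3 (ERp57, the isomerase that works with Calr and Canx) at 129 CPM per kb. Pdia4, Atf4, Xbp1, Canx (the membrane-bound lectin chaperone) and Pdia6 lay between 68.3 and 89.8 CPM per kb, and Ddit3 was lowest at 16.7 CPM per kb. The bulk table lists Ddit3 under a suffixed symbol, and the GENCODE annotation holds a pair of overlapping genes of that name. How reads in the overlap were counted was not given, so the level of Ddit3 is less certain than the others.

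**Figure D1:**
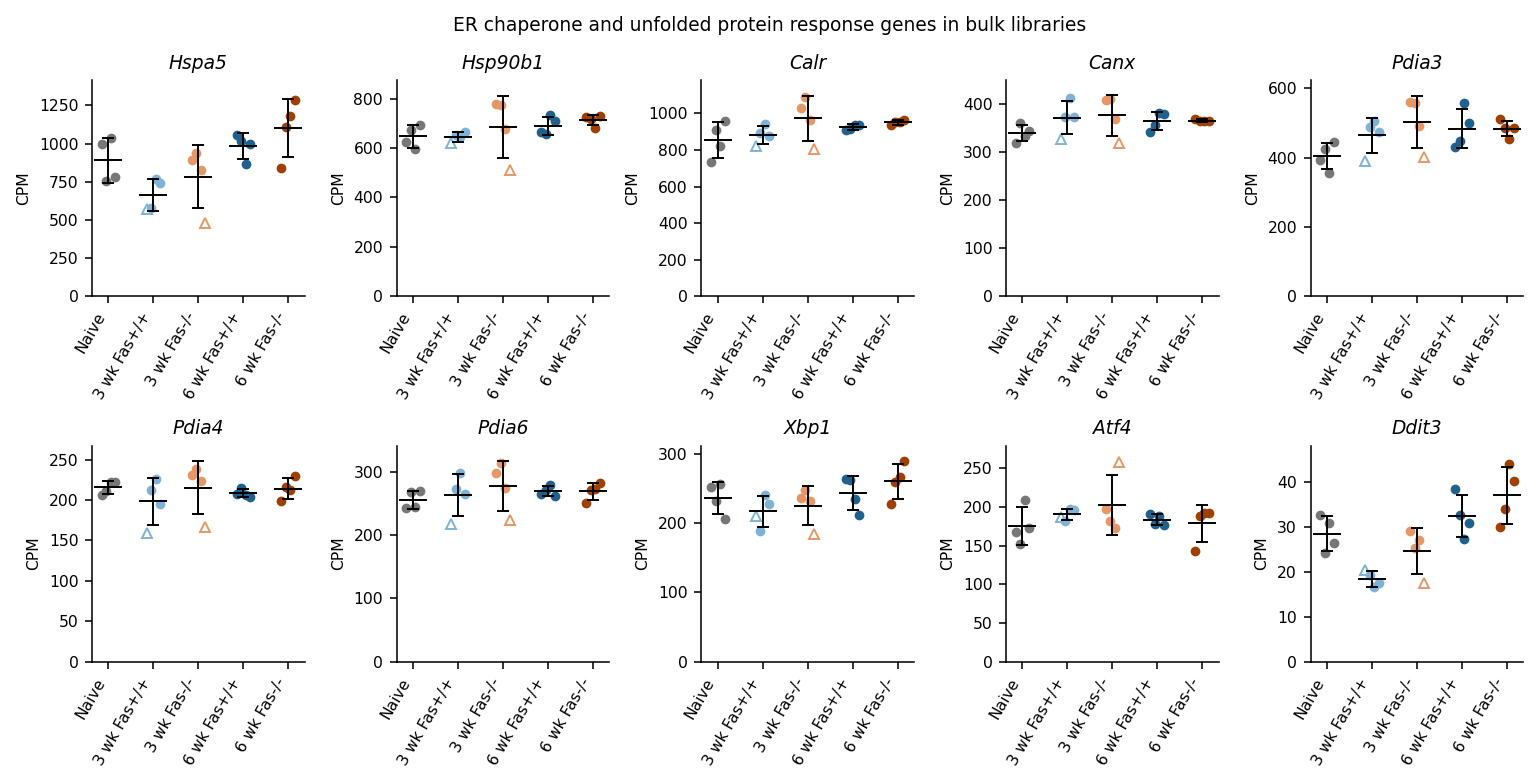
CPM (TMM-scaled) of the 10 genes in each of the 20 bulk libraries, with the group mean and SD as bars (n = 4) and open triangles for the endothelial-rich libraries. Ddit3 in the week 3 Fas+/+ group (16.6 to 20.4 CPM) lies below all naive libraries (24.3 to 32.6 CPM), while most other groups overlap.

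The comparison of bleomycin with naive mice asks how the folding machinery stands at the peak of fibrosis, at 3 weeks, in mice with intact Fas. Most chaperones stayed close to their naive level, and Ddit3 was lower. Of the 10 members, 1 was called, lower, at an adjusted p of 0.05 or less by edgeR's quasi-likelihood test, against 41.3% of all genes tested and 19.2% called lower. The median log2 fold change of the members was 0.02, beside 0.01 over all genes. Groups did not overlap for 1 member and for 32.2% of all genes.

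Ddit3 was counted at 32.6, 24.3, 30.9 and 26.5 CPM in the 4 naive libraries and at 20.4, 19.3, 16.6 and 17.5 CPM in the 4 week 3 Fas+/+ libraries. All 4 bleomycin libraries were below all 4 naive libraries. The log2 fold change was -0.63 ± 0.16 (SE, n = 4; adjusted p = 0.00374), and an exact two-sided permutation test gave p = 0.0286, the smallest that 4 libraries against 4 allow. In bulk samples, fewer cells of a type that expresses a gene and less RNA per cell cannot be told apart.

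Hspa5 was counted at 997, 752, 1034 and 779 CPM in naive libraries and at 568, 579, 771 and 742 CPM in week 3 Fas+/+ libraries. The groups overlapped only in that the highest week 3 library lay above the lowest naive one. The log2 fold change was -0.42 ± 0.18 (adjusted p = 0.0740; exact p = 0.0571), so that it did not pass the threshold. It did pass without the endothelial-rich libraries (log2 fold change -0.36, adjusted p = 0.0468) and also without replicate 4 of the week 3 Fas-/- group alone (-0.44), a library of neither group compared, which enters the fit through the filter, the scaling, the shared spread and the adjustment over genes.

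The other chaperones moved little at 3 weeks. Hsp90b1 was at 646.9 ± 45.4 CPM (SD, n = 4) in naive and 644.8 ± 18.8 CPM in week 3 Fas+/+ libraries, and Calr was at 854.7 ± 100 and 883.6 ± 49.4 CPM. Canx was at 339.7 ± 17.2 and 372.0 ± 35.0 CPM, and Pdia3 at 404.9 ± 38.8 and 464.2 ± 51.0 CPM. The 6 chaperones and isomerases other than Hspa5 had log2 fold changes from -0.12 (Pdia4) to 0.20 (Pdia3), with adjusted p-values from 0.170 to 0.976. Xbp1, the target of IRE1, and Atf4, the effector of PERK, had log2 fold changes of -0.13 and 0.12 (adjusted p = 0.370 and 0.453). These are mRNA levels of whole genes. Splicing of Xbp1, ATF4 protein and cleavage of ATF6 were not measured, so the activity of the sensors cannot be read from them.

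With the endothelial-rich libraries left out, 4 members were called in the same comparison (a setting chosen after the data were seen), against 50.7% of the 15952 genes then tested (26.1% higher and 24.6% lower). Their median log2 fold change was 0.04. Hspa5 and Ddit3 (-0.68, adjusted p = 0.000637) were lower, and Canx (0.18, adjusted p = 0.0159) and Pdia3 (0.27, adjusted p = 0.0184) were higher. The fall of Ddit3 was as large without these libraries as with them.

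Other cell populations moved with this comparison. Of 8 blood endothelial markers 8 were higher (2033 to 8033 CPM summed, against 208 to 458 in naive libraries), of 10 profibrotic fibroblast markers 8 were higher (14164 to 69478 against 16945 to 24954 CPM), and of 8 lipofibroblast markers 7 were lower (3329 to 5439 against 9495 to 11120 CPM). Of 5 erythroid markers 5 were lower, from 2979 to 9589 CPM in naive to 27.8 to 89.5 CPM in week 3 Fas+/+ libraries. No marker of these lists was without counts in any group. Their part in the results was not tested. Of 9 genes that respond to tissue dissociation, 2 were lower and none was higher.

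**Figure D2:**
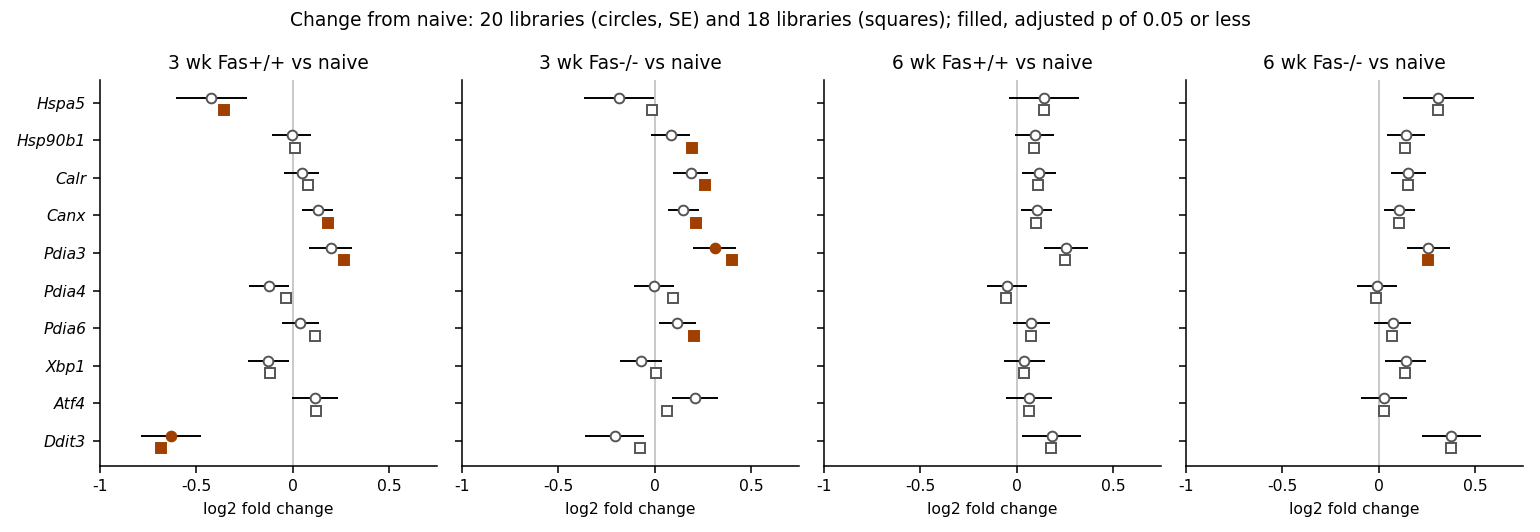
Log2 fold change from naive mice for the 10 genes in the 4 bleomycin groups, from the fit to all 20 libraries (circles, bars are SE) and to the 18 libraries without the endothelial-rich ones (squares); filled symbols passed an adjusted p of 0.05. Ddit3 at 3 weeks in Fas+/+ mice is at -0.63, and Pdia3 is to the right of 0 in all 4 panels.

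In week 3 Fas-/- mice, 1 of the 10 members was called against naive mice, beside 32% of all genes tested (17.2% called higher), and it was another gene, Pdia3. Pdia3 was at 394, 426, 356 and 444 CPM in naive libraries and at 561, 557, 491 and 402 CPM in week 3 Fas-/- libraries. The first 3 of these libraries were above all naive ones, and the last, the endothelial-rich replicate 4, was among them. The log2 fold change was 0.31 ± 0.11 (adjusted p = 0.0412; exact p = 0.0857).

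This call for Pdia3 was fragile. It was lost in 11 of the 20 fits that each left out 1 library, at log2 fold changes of 0.24 to 0.34. These were naive replicates 1, 2 and 3, week 3 Fas-/- replicates 1, 2 and 3, week 6 Fas+/+ replicates 2, 3 and 4, and week 6 Fas-/- replicates 2 and 3. The call was also lost in the fit to the 2 groups alone (0.31), without a filter on low counts (0.31) and with the replicate number as a block (0.31). Ddit3 was at 29.2, 25.3, 27.1 and 17.4 CPM in the week 3 Fas-/- libraries, of which 3 lay within the naive range, and its log2 fold change was -0.21 ± 0.15 (adjusted p = 0.321).

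Without the endothelial-rich libraries, 5 members were called higher in week 3 Fas-/- than in naive mice, against 37.6% of all genes called and 19.3% called higher. They were Hsp90b1 (log2 fold change 0.19, adjusted p = 0.0269), Calr (0.26, adjusted p = 0.0107), Canx (0.21, adjusted p = 0.00908), Pdia3 (0.40, adjusted p = 0.00213) and Pdia6 (0.20, adjusted p = 0.0182). Calr also passed when replicate 4 of this group alone was left out (0.26). These 5 are folding factors of the lumen and membrane, and no transcription factor was among them. Of 8 blood endothelial markers 6 were higher in week 3 Fas-/- libraries with all 20 libraries in the fit (594 to 7263 CPM), and their part in these values was not tested.

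At 6 weeks, when fibrosis resolves in mice with intact Fas, no member was called against naive mice in either genotype. The count was 0 of 10 in Fas+/+ mice, beside 5.31% of all genes, and 0 of 10 in Fas-/- mice, beside 6.48%. DESeq2 also called 0 in both, and 1 and 2 members had an unadjusted p under 0.05. In each genotype 9 of 10 log2 fold changes were above 0, with medians of 0.10 in Fas+/+ and 0.14 in Fas-/- mice, beside 0.00 and 0.01 over all genes. Both comparisons share the naive libraries.

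Pdia3 had the same log2 fold change from naive in both genotypes at 6 weeks, 0.26 ± 0.11, with adjusted p-values of 0.212 in Fas+/+ and 0.193 in Fas-/- mice. In Fas-/- mice the 4 libraries (455 to 511 CPM) were all above the 4 naive libraries (356 to 444 CPM), as they were for Canx (364 to 369 against 320 to 361 CPM). Groups did not overlap for 16.1% of all genes in that comparison. Without the endothelial-rich libraries Pdia3 passed the threshold in Fas-/- mice (0.26, adjusted p = 0.0465), beside 15% of all genes. In Fas+/+ mice it was then at 0.25 and just short of the threshold (adjusted p = 0.0515). The difference in Pdia3 between the genotypes at 6 weeks was 0.0015 (adjusted p = 0.997). Ddit3 had log2 fold changes of 0.18 ± 0.15 and 0.38 ± 0.15 (adjusted p = 0.570 and 0.161), and Hspa5 of 0.14 ± 0.18 and 0.31 ± 0.18 (adjusted p = 0.734 and 0.357).

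The change between 3 and 6 weeks followed Hspa5 and Ddit3, which both rose in Fas+/+ mice. They were 2 of 10 members called, beside 22.9% of all genes (12% higher). Hspa5 went from 568, 579, 771 and 742 CPM at 3 weeks to 1055, 1019, 864 and 994 CPM at 6 weeks. Every week 6 library was above every week 3 library (log2 fold change 0.56 ± 0.18, adjusted p = 0.0341, exact p = 0.0286), as for 23.5% of all genes in either direction. Ddit3 went from 16.6 to 20.4 CPM to 38.6, 32.7, 27.4 and 30.9 CPM, also without overlap (0.81 ± 0.16, adjusted p = 0.00144, exact p = 0.0286).

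The call for Hspa5 was lost without week 3 Fas+/+ replicate 1 (0.50) or 2 (0.50), or without week 6 Fas+/+ replicate 1 (0.53), 2 (0.56) or 4 (0.57). It was also lost with the replicate number as a block (0.57). It was present when both endothelial-rich libraries were left out (0.50, adjusted p = 0.0118), as was that of Ddit3 (0.86, adjusted p = 0.000143), beside 36.2% of all genes. The call for Ddit3 was present in all 20 fits that left out 1 library. The other 8 members had log2 fold changes from -0.05 to 0.17, with none past the threshold.

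In Fas-/- mice 1 of 10 members was called between 3 and 6 weeks, beside 9.02% of all genes (4.48% higher). Ddit3 rose from 29.2, 25.3, 27.1 and 17.4 CPM to 30.02, 33.96, 44.1 and 40.3 CPM, with all week 6 libraries above all week 3 libraries (0.58 ± 0.15, adjusted p = 0.0269, exact p = 0.0286), a separation found for 17.4% of all genes. The call was lost in the fit to the 2 groups alone (0.58) and without week 3 Fas-/- replicate 2 (0.60) or 4 (0.45) or week 6 Fas-/- replicate 3 (0.50) or 4 (0.54). Hspa5 went from 894, 936, 824 and 480 CPM to 839, 1108, 1184 and 1284 CPM. The groups overlapped, and the log2 fold change of 0.49 ± 0.18 did not pass (adjusted p = 0.0981). Without both endothelial-rich libraries the log2 fold change was 0.45 for Ddit3 (adjusted p = 0.0305) and 0.32 for Hspa5 (adjusted p = 0.137), beside 16.8% of all genes called (7.78% higher). Over these 3 weeks the blood endothelial markers had median log2 fold changes of -1.99 in Fas+/+ and -1.62 in Fas-/- mice with 0 of 8 called in each, and the 7 cycling markers were lower in each, 7 of 7. Their part in the results was not tested.

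The genotype comparison asks whether deletion of Fas in fibroblasts alters the folding machinery at a fixed time. No member was called at 3 weeks, beside 0.171% of all genes, nor at 6 weeks, beside 0.0507%. DESeq2 called 0 at both times, and 1 and 0 members had an unadjusted p under 0.05. At 3 weeks all 10 log2 fold changes (Fas-/- over Fas+/+) were above 0, with a median of 0.10 and a range from 0.02 (Canx) to 0.42 (Ddit3). At 6 weeks 8 of 10 were above 0, with a median of 0.04 and a range from -0.03 (Atf4) to 0.19 (Ddit3). The small shares of all genes called depended on the endothelial-rich libraries. Without them 1 member was called at 3 weeks, beside 3.77% of all genes, and 0 at 6 weeks, beside 1.38%.

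Ddit3 was the member with the largest difference between genotypes at 3 weeks. The Fas+/+ libraries lay between 16.6 and 20.4 CPM and 3 of the Fas-/- libraries between 25.3 and 29.2 CPM. The fourth, the endothelial-rich replicate, was at 17.4 CPM, within the Fas+/+ range. The log2 fold change was 0.42 ± 0.16 (adjusted p = 0.393, exact p = 0.114). Without that library it was 0.57 and passed the threshold, and without both endothelial-rich libraries it was 0.61 (adjusted p = 0.0318, beside 3.77% of all genes called). The libraries then kept still differed in cell mix. Lipofibroblast markers summed to 3329 to 4626 CPM in Fas+/+ and 5838 to 7081 CPM in Fas-/- libraries. Blood endothelial markers were at 2033 CPM or more in every Fas+/+ library, against a median of 815 CPM over the whole Fas-/- group. The part of cell mix in the Ddit3 difference was not tested. The difference between the genotypes in their change with time, tested as an interaction, was called for 0 of 10 members by edgeR and by DESeq2, with 0 at an unadjusted p under 0.05 and 0.00634% of all genes called. For Ddit3 it was -0.23 ± 0.22 (adjusted p = 0.905). Without both endothelial-rich libraries the interaction was -0.41 for Ddit3 (adjusted p = 0.276). It was then called for 0 of 10 members, beside 2.46% of all genes.

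Across the 5 groups, Hspa5 was highest in week 6 Fas-/- libraries (1103 ± 191 CPM), then week 6 Fas+/+ (983 ± 83.4), naive (890 ± 146), week 3 Fas-/- (784 ± 207) and week 3 Fas+/+ libraries (665 ± 106). Each neighbour in this order overlapped the next. Ddit3 had the same order, from 37.1 ± 6.29 CPM in week 6 Fas-/- to 18.4 ± 1.72 CPM in week 3 Fas+/+ libraries, also with overlap between all neighbours. Pdia3 had its lowest mean in naive mice (404.9 ± 38.8 CPM) and its highest in week 3 Fas-/- mice (502.8 ± 74.4 CPM). These orders were the same without the endothelial-rich libraries, with week 3 means of 697 ± 103 CPM in Fas+/+ and 885 ± 56.7 CPM in Fas-/- for Hspa5, 17.8 ± 1.36 and 27.2 ± 1.94 CPM for Ddit3, and 489 ± 16.1 and 536 ± 39.3 CPM for Pdia3 (SD, n = 3).

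The members therefore did not vary as 1 set across the libraries. Over the 20 libraries, Hspa5, Xbp1 and Ddit3 varied together, with Pearson's r of log2 CPM of 0.89 for Hspa5 with Xbp1 (rho = 0.88), 0.87 for Hspa5 with Ddit3 (rho = 0.93) and 0.72 for Xbp1 with Ddit3 (rho = 0.75; permutation p adjusted over 45 pairs 0.000075, 0.000075 and 0.00103, and for rho 0.00015, 0.00015 and 0.00118). Without the 2 libraries farthest from the median of the first gene, r was 0.85, 0.86 and 0.61. Among Hsp90b1, Calr, Canx, Pdia3, Pdia4 and Pdia6, r ran from 0.46 to 0.88 with a median of 0.79 over 15 pairs. Between the former 3 and the latter 6 it ran from -0.11 to 0.63 with a median of 0.27 over 18 pairs. Atf4 had r from -0.52 to -0.13 with the other 9. Leaving out the endothelial-rich libraries gave medians of 0.85 for the first 3 genes, 0.73 for the 6 and -0.01 between them, and Atf4 had r from -0.12 to 0.34. Pairs within the 6 then ran from 0.20 (Pdia3 with Pdia4) to 0.86, and pairs between the former 3 and these 6 from -0.45 to 0.25. This grouping was made after the values were seen and is a description, and the libraries share groups and the endothelial-rich samples.

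Hspa5, with an exact ERSE match in its window, varied with Xbp1 and Ddit3, which had no exact match there. Pdia3, also without an exact match, varied with 4 genes that had one (Hsp90b1, Calr, Canx and Pdia6, r from 0.77 to 0.88). Pdia4, without a match as well, was less clearly placed. Its r was 0.60 to 0.85 with these 4 genes and 0.63 with Hspa5. Without the endothelial-rich libraries the values for Pdia4 were 0.28 to 0.67 and 0.17. Any part of the element in these relations was not tested. Outside the lists of ER genes and markers, the genes most like the mean of the 7 chaperones over the 20 libraries were Vasn (r = 0.90), Ctsb (0.86), Fblim1 (0.86), March3 (0.86) and Adam9 (0.86). Those most like Ddit3 were Slc43a2 (0.92), Rem1 (0.92) and Dnajb2 (0.91). Those most like Xbp1 were P2ry1 (0.86), Slc33a1 (0.85) and Gm15459 (0.83), and those most like Atf4 were Nsfl1c (0.85), Pvr (0.83) and Srsf3 (0.81). Over the 18 libraries that leave out the endothelial-rich ones, r lay between 0.70 and 0.76 for the genes named with the chaperones, between 0.89 and 0.92 for those with Ddit3, and between 0.74 and 0.84 for those with Xbp1 and Atf4.

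Secretion was not measured in these libraries, and the mRNA of 5 fibrillar collagen genes was used as a stand-in for secretory load. In naive libraries they summed to 14713 to 26921 CPM. The sums were 11622 to 48215 CPM in week 3 Fas+/+ and 19365 to 41917 CPM in week 3 Fas-/- libraries. They were 15077 to 18029 CPM in week 6 Fas+/+ and 18741 to 30272 CPM in week 6 Fas-/- libraries. Of these 5 genes 3 were higher at 3 weeks in Fas+/+ mice (median log2 fold change 1.04), and 5 were lower at 6 than at 3 weeks in these mice (-1.25). All 5 were higher without the endothelial-rich libraries at 3 weeks in Fas+/+ (median 1.34) and in Fas-/- mice (0.98), where 1 had been called with all libraries, and 5 were lower at 6 weeks in Fas+/+ mice (-1.55). In each group of week 3 the lowest collagen sum was that of the endothelial-rich library. Over the same interval Hspa5 and Ddit3 rose in Fas+/+ mice, so that they moved opposite to the collagens.

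With all 20 libraries, Canx was the member with the largest r in size with collagen. Over the 20 libraries, its log2 CPM had r = 0.71 with the mean log2 CPM of the collagens (permutation p adjusted over the 10 members 0.0037, rho = 0.68 with adjusted p = 0.0143, and r = 0.68 without the 2 libraries farthest in collagen). Pdia6 (r = 0.62, adjusted p = 0.0159; rho = 0.56, adjusted p = 0.0381), Pdia3 (0.58, 0.0253; rho = 0.59, 0.0358), Calr (0.52, 0.0396; rho = 0.45, 0.0799) and Pdia4 (0.49, 0.0499; rho = 0.52, 0.0526) followed, and without the 2 farthest libraries r was 0.60, 0.58, 0.62 and 0.49. Hsp90b1 had r = 0.32 (adjusted p = 0.247). Canx did not keep first place without the endothelial-rich libraries, where r was -0.72 for Ddit3 and 0.69 for Canx. The permutations shuffled libraries across all groups, so these p-values do not allow for shared groups or the endothelial-rich libraries.

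Within the groups, these relations were weaker for 4 of the 6 genes once the endothelial-rich libraries were left out. Both were the lowest of their groups for Hspa5, for each of these 6 genes and for the collagens. As deviations from group means, r was 0.81 for Canx, 0.80 for Pdia6, 0.79 for Pdia4, 0.76 for Pdia3, 0.70 for Calr and 0.56 for Hsp90b1 with all libraries, and 0.63, 0.40, 0.26, 0.59, 0.77 and 0.57 in the same order without these 2. With both endothelial-rich libraries left out, r over the remaining libraries was 0.69 for Canx, 0.56 for Pdia6, 0.51 for Pdia3, 0.46 for Calr and 0.37 for Pdia4. Ddit3 had r = -0.45 (adjusted p = 0.0825; rho = -0.49, adjusted p = 0.0614; -0.23 without the 2 farthest) and Hspa5 r = -0.19 (adjusted p = 0.518; rho = -0.31, adjusted p = 0.266), and for these the 2 libraries mattered, since r was -0.72 and -0.61 without them. Within groups, r was -0.15 for Ddit3 and 0.29 for Hspa5 with all libraries, and -0.67 and -0.54 without these 2. Xbp1 and Atf4 had r of -0.17 and -0.06 (adjusted p = 0.518 and 0.812).

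**Figure D3:**
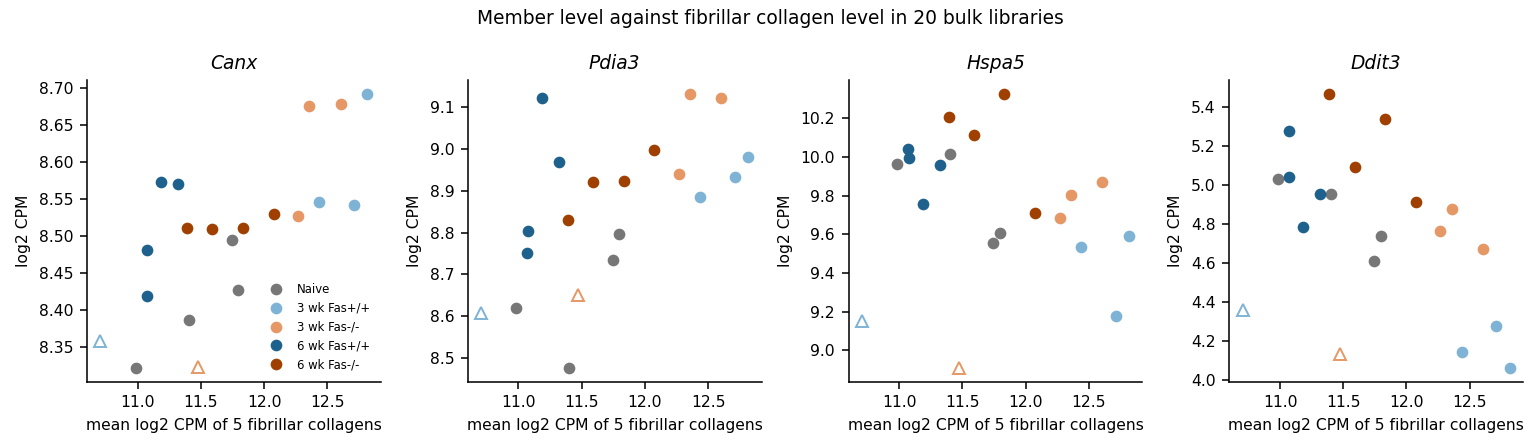
Log2 CPM of 4 genes against the mean log2 CPM of 5 fibrillar collagens in the 20 bulk libraries, coloured by group, with open triangles for the endothelial-rich libraries. Canx (r = 0.71) and Pdia3 (r = 0.58) rise along the collagen axis, while Ddit3 is lowest in the 4 week 3 Fas+/+ libraries (16.6 to 20.4 CPM) and the open triangle of week 3 Fas-/- (17.4 CPM).

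Around the 10 members, genes of the wider ER machinery moved in both directions at 3 weeks in Fas+/+ mice. Of the 134 other ER genes 30 were higher and 26 lower than in naive mice (22.4% and 19.4%, beside 22.1% and 19.2% of all genes tested), close to the background in each direction. The counts became 55 higher and 31 lower without the endothelial-rich libraries (41% and 23.1%, beside 26.1% and 24.6% of all genes then tested), so the balance and the rate both depended on those libraries. Lists described here were chosen with results of these data known. Luminal chaperones and co-chaperones had 2 higher and 5 lower of 16, ER-associated degradation 0 higher and 4 lower of 15, translocation and N-glycosylation 1 higher and 4 lower of 24, and sensors and transducers 2 higher and 4 lower of 10. In the list of ATF4 and CHOP targets, 11 were higher and 2 lower of 22, with a median log2 fold change of 0.60 beside 0.01 over all genes. Collagen folding and modification had 5 higher and 4 lower of 16, other disulfide isomerases and oxidases 4 and 2 of 10, and ER export and retrieval 5 and 1 of 21. With the endothelial-rich libraries left out, the counts of higher and lower genes were 4 and 6 for luminal chaperones, 2 and 5 for degradation, 10 and 4 for translocation and N-glycosylation, 2 and 4 for sensors, 14 and 2 for ATF4 and CHOP targets, 7 and 5 for collagen folding, 3 and 3 for isomerases and 13 and 2 for export. Translocation and N-glycosylation thus had more lower than higher genes with these libraries and more higher than lower genes without them. No list was tested as a whole.

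The lowered luminal genes included partners of Hspa5. Dnajc3 (p58IPK, a co-chaperone of Hspa5) had a log2 fold change of -0.41 (adjusted p = 0.000407), Sdf2l1 (a member of Hspa5 complexes) of -0.54 (adjusted p = 0.00199) and Fkbp2 (a prolyl isomerase) of -0.47 (adjusted p = 0.0000506). Among the sensors, Atf6 (-0.48) and Mbtps1 (-0.30), which encodes the protease that cleaves ATF6, were lower and Creb3 (0.29) was higher. In degradation, Herpud1 (-0.66), Sel1l (-0.22) and Derl1 (-0.16), components of the machinery that returns misfolded proteins to the cytosol, were lower. Sec63 (-0.25), Ssr1 (-0.32) and Sec11c (-0.43) of translocation and signal-peptide removal were lower as well. All of these 12 genes were called in the same direction without the endothelial-rich libraries.

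In the other lists, the genes named by the smallest adjusted p moved in both directions. Pdia5 (1.18, adjusted p = 0.000161), an isomerase, Qsox1 (0.41), a secreted thiol oxidase, P4ha3 (2.22, adjusted p = 0.00170), a collagen prolyl hydroxylase, and Colgalt1 (0.41), a collagen galactosyltransferase, were higher, while Ero1lb (-0.72), an oxidase, and Fkbp9 (-0.41), a prolyl isomerase, were lower. In export, Sar1b (0.24), Kdelr2 (0.36) and Sec13 (0.31) were higher. Asns, the asparagine synthetase, was at 13.1 CPM against 2.83 CPM in naive libraries (log2 fold change 2.21, adjusted p = 0.00000770), while Atf5 (-0.98, adjusted p = 0.00000179), a transcription factor, and Vldlr (-1.002, adjusted p = 0.00000817), a lipoprotein receptor, were lower. Of the other 10 genes of that list called higher, named after their values were seen, Slc7a11, Slc7a5 and Slc3a2 carry amino acids, Psat1 and Mthfd2 serve serine and one-carbon metabolism, and Wars charges a transfer RNA. Ddit3 itself moved the other way. The 12 genes given with values here were again called in the same direction without the endothelial-rich libraries, from -1.08 for Vldlr to 2.59 for P4ha3.

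At 3 weeks in Fas-/- mice 17 other ER genes were higher and 14 lower than in naive mice (12.7% and 10.4%, beside 17.2% and 14.8% of all genes tested), with 7 higher and 2 lower of 22 in the list of ATF4 and CHOP targets. Leaving out the endothelial-rich libraries gave 47 higher and 15 lower (35.1% and 11.2%, beside 19.3% and 18.3%), with 12 and 3 in that list and 12 and 0 of 21 in export and retrieval. Dnajc3 was lower (-0.29, adjusted p = 0.00761), Pdia5 (0.92, adjusted p = 0.00183) and P4ha3 (2.10, adjusted p = 0.00375) were higher, and Sdf2l1 (-0.27, adjusted p = 0.0899) and Herpud1 (-0.46, adjusted p = 0.101) did not pass, each as without the endothelial-rich libraries (-0.24, 0.93, 2.32, -0.19 and -0.36). At 6 weeks 4 genes were higher and none lower than naive in Fas+/+ mice (Sil1, Creb3, Asns and Sar1b, named for their small number after the values were seen), and 2 were higher (Creb3 and Stc2) and 1 lower (Atf5) in Fas-/- mice. Of all genes, 5.31% and 6.48% were called in these comparisons. Without the endothelial-rich libraries 7 were higher and 7 lower in Fas+/+ mice (10.4%, beside 13.2% of all genes). In Fas-/- mice 12 were then higher and 5 lower (12.7%, beside 15%). Between genotypes, 0 of 134 were called at 3 and at 6 weeks by edgeR, with 10 and 8 at an unadjusted p under 0.05, and DESeq2 called 1 and 0. Of all genes, edgeR called 0.171% and 0.0507%. At 3 weeks 4 were higher and 3 lower without the endothelial-rich libraries (5.22%, beside 3.77% of all genes). At 6 weeks 2 were higher and 1 lower without them (2.24%, beside 1.38%).

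From 3 to 6 weeks in Fas+/+ mice, 18 of the 134 rose and 13 fell (13.4% and 9.70%, beside 12% and 10.9% of all genes tested). Without the endothelial-rich libraries 23 rose and 49 fell (17.2% and 36.6%, beside 18.6% and 17.6%), so that the balance turned. Among luminal chaperones 5 rose and 1 fell of 16, and in degradation 4 rose and 0 fell of 15, against 5 and 2 and 6 and 1 without those libraries. Export and retrieval went from 0 risen and 1 fallen to 0 and 13 of 21, and ATF4 and CHOP targets from 2 and 5 to 2 and 12 of 22. Dnajc3 (0.37, adjusted p = 0.00234), Sdf2l1 (0.58, adjusted p = 0.00250) and Herpud1 (0.69, adjusted p = 0.0245) rose with Hspa5, and Pdia5 (-0.93, adjusted p = 0.00235), P4ha3 (-1.83, adjusted p = 0.0109) and Asns (-1.24, adjusted p = 0.00190) fell, and these 6 calls were the same without the endothelial-rich libraries. In Fas-/- mice 9 rose and 4 fell (6.72% and 2.99%, beside 4.48% and 4.54% of all genes), and 9 rose and 31 fell without those libraries (6.72% and 23.1%, beside 7.78% and 9.05%). Among those called with all libraries were Dnajc3 (0.27, adjusted p = 0.0351) and Herpud1 (0.87, adjusted p = 0.0172), which rose, and Pdia5 (-0.78, adjusted p = 0.0193), which fell, and the 3 were also called without them. For the list of cytosolic and mitochondrial chaperones, 3 higher and 2 lower of 19 were called at 3 weeks in Fas+/+ mice and 0 in Fas-/- mice, and 4 and 3 and 4 and 1 without the endothelial-rich libraries.

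In single cells, the members were measured as unique molecular identifiers (UMIs) per 10,000 UMIs, summed over the cells of a class in a library. Of 13900 barcodes 12059 passed the filters on genes and mitochondrial share, and 8710 of these fell into mesenchymal-like clusters. Clusters were made without the members and the other ER genes. With 1 library for each condition no test between conditions was possible. The intervals given for levels are exact Poisson intervals (95%) for counting error only. Those given for ratios of classes are normal approximations (95%) on the log ratio, also for counting error only. Median UMIs per cell ran from 5768 to 8896.

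Some barcodes were found in several libraries, 607 in all and 543 among kept cells. In the naive library 350 of 603 kept barcodes were shared, at a median of 11972.5 UMIs, whereas the shared barcodes of the other libraries had medians of 758 to 1133.5 UMIs against 6264 to 10858 for the rest. Of the 10 naive cells in profibrotic fibroblast-like clusters 9 carried shared barcodes, so this class was not used in the naive library. Of the 536 naive mesenchymal-like cells 299 carried shared barcodes, and results that moved without such barcodes are given both ways. Week 6 Fas+/+ held 869 of the 1395 blood endothelial-like cells, and these are outside the mesenchymal-like cells.

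In mesenchymal-like cells the 10 members together took 43.8 (43.2 to 44.4) UMIs per 10,000 in the naive library, 47.0 (46.7 to 47.3) in week 3 Fas+/+, 47.1 (46.7 to 47.5) in week 3 Fas-/-, 46.7 (46.4 to 46.9) in week 6 Fas+/+ and 51.4 (51.2 to 51.7) in week 6 Fas-/-. The naive library was lowest and week 6 Fas-/- highest. Without shared barcodes the values were 41.96, 46.6, 46.9, 46.5 and 51.6, in the same places at both ends. With each cell thinned to 3000 UMIs, the naive library (44.1) lay close to week 6 Fas+/+ (44.5). Over the same cells the cytosolic and mitochondrial chaperones took 62.1, 56.6, 57.3, 52.0 and 59.3, with the naive library highest, but the naive value was 54.9 without shared barcodes, below the 59.1 of week 6 Fas-/-. The dissociation-response genes took 91.3, 67.3, 68.5, 70.2 and 63.5, highest in the naive library, as also without shared barcodes (83.1 against 63.5 to 70.4).

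Among single members, Pdia3 and the lectin chaperones had the largest ratios between the week 6 Fas-/- and the naive library. Pdia3 was at 5.73 (5.52 to 5.95) in the naive and 7.68 (7.58 to 7.78) in the week 6 Fas-/- library, a ratio of 1.34. Canx was at 2.49 and 3.26 (ratio 1.31) and Calr at 7.34 and 9.47 (ratio 1.29). For Hspa5 the values were 10.5 (10.2 to 10.8) and 10.7 (10.5 to 10.8), a ratio of 1.02, and for Atf4 1.39 in both. Without shared barcodes the ratio was 1.51 for Pdia3, 1.43 for Calr, 1.27 for Canx, 1.03 for Hspa5 and 1.11 for Atf4, and Pdia4 (1.43) and Hsp90b1 (1.28) then lay above Canx, from 1.21 and 1.25 with all barcodes. The week 6 Fas+/+ library was also above naive with all barcodes, at ratios of 1.20 for Pdia3, 1.29 for Canx and 1.22 for Calr. For Hspa5 its ratio was 0.854. The higher Pdia3, Canx and Calr were therefore not particular to the Fas-/- library.

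Ddit3 in single cells had another order than in bulk. It was at 0.694 (0.622 to 0.771) UMIs per 10,000 in the naive, 0.783 (0.746 to 0.821) in week 3 Fas+/+, 0.816 (0.770 to 0.865) in week 3 Fas-/-, 0.410 (0.385 to 0.436) in week 6 Fas+/+ and 0.564 (0.537 to 0.591) in week 6 Fas-/- mesenchymal-like cells. The week 6 libraries were lowest here, whereas in bulk they were highest. Without shared barcodes the naive library was at 0.536 (0.415 to 0.680), between 0.414 and 0.557 at 6 weeks, and the week 3 libraries were still above all others (0.789 and 0.815). The fibrillar collagens also differed in order, at 75.7, 65.7, 93.2, 156.1 and 149.2 UMIs per 10,000 in the same libraries, highest at 6 weeks (57.3, 63.9, 93.1, 156.3 and 150.7 without shared barcodes), whereas in bulk the highest sums were in week 3 libraries. The rise from week 3 to week 6 seen in bulk for Ddit3, and for Hspa5 (10.8 and 8.94 UMIs per 10,000 in Fas+/+, 12.03 and 10.7 in Fas-/-), was therefore not seen in these mesenchymal-like cells. The measures are unlike, since bulk covers all sorted Lin- cells. The single-cell values are UMI shares in mesenchymal-like clusters alone, from 1 library per condition.

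Between cell classes the members differed more than between conditions. Over all libraries the 10 members took 57.9 UMIs per 10,000 in mesothelial-like, 54.2 in Col14a1 fibroblast-like, 35.6 in blood endothelial-like and 24 in vascular smooth muscle-like cells, and between 48.5 and 50.1 in airway smooth muscle-like, profibrotic fibroblast-like, lipofibroblast-like and pericyte-like cells. Within libraries these last 4 classes had no fixed order. Airway smooth muscle-like cells, the highest of the 4 in the pooled values, were above profibrotic fibroblast-like cells in 1 of 4 libraries, above lipofibroblast-like cells in 2 of 5 and above pericyte-like cells in 2 of 5, with their own share between 43.9 and 45.03 in 4 libraries and at 61.6 in week 6 Fas-/-. The mesothelial-like share was 2.26 to 2.60 times the vascular smooth muscle-like one, in 5 of 5 libraries. Mesothelial-like cells were also above Col14a1 fibroblast-like cells in 5 of 5 libraries and above profibrotic fibroblast-like cells in 4 of 4. Without shared barcodes the naive library had fewer than 20 cells in some classes, and these differences were found in 4 of 4 libraries each. For the cytosolic and mitochondrial chaperones vascular smooth muscle-like cells were at the other end, with 115.1 against 66.6 in mesothelial-like cells and above them in 5 of 5 libraries, while mesothelial-like cells were again above profibrotic fibroblast-like cells in 4 of 4 libraries and above Col14a1 fibroblast-like cells in 5 of 5.

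Profibrotic fibroblast-like cells had nearly the same share of ER members as lipofibroblast-like cells, while they held far more collagen UMIs. The fibrillar collagens took 226.7 UMIs per 10,000 in profibrotic and 75.2 in lipofibroblast-like cells. The markers that named the profibrotic class include Col1a1 and Col1a2, so its collagen excess is not independent of its name. The ratio of the members' share, profibrotic over lipofibroblast-like, was 1.00 (0.976 to 1.02) and 1.04 (1.01 to 1.0604) at 3 weeks in Fas+/+ and Fas-/- mice and 0.970 (0.955 to 0.984) and 1.01 (0.996 to 1.02) at 6 weeks. For the 7 chaperones alone, lipofibroblast-like cells were at 0.939 to 0.998 times the profibrotic share, above it in 0 of 4 libraries. For the other ER lists they were at 0.876 to 0.975 times, again above it in 0 of 4. Clusters 0, 3 and 6 were named lipofibroblast-like, and cluster 3 was led by Saa3 and Lcn2. Against clusters 0 and 6 alone the ratios were 1.05, 1.07, 1.02 and 1.10. The profibrotic clusters 5 and 15 had median depths of 14091 and 25202 UMIs per cell, the latter the highest of all clusters; no doublet caller was run.

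Single members nevertheless differed between these 2 fibroblast classes. Xbp1 was higher in lipofibroblast-like cells in 4 of 4 bleomycin libraries, by 1.41 to 1.90 times, with 3.08 against 1.83 UMIs per 10,000 over all libraries. Calr was lower there in 4 of 4, at 0.860 to 0.889 times, and Pdia4 in 4 of 4, at 0.839 to 0.920 times. Hspa5 was higher in 4 of 4, by 1.00 to 1.23 times, and Pdia3 in 2 of 4, at 0.942 to 1.04 times. Without shared barcodes these counts were the same for Xbp1, Calr, Pdia4 and Pdia3, and Hspa5 was higher in 3 of 4. All of these values include cluster 3, led by Saa3 and Lcn2, and single members were not compared by library without it.

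Blood endothelial-like cells, the class that was plentiful in 2 bulk libraries, had less of most members and more Atf4. Relative to lipofibroblast-like cells of the same library (4 libraries with at least 20 such cells), Hspa5 was at 0.417 to 0.493 times, Ddit3 at 0.473 to 0.582 times and Calr at 0.770 to 0.893 times. Atf4 was at 1.54 to 2.19 times, higher in 4 of 4. In bulk, the endothelial-rich replicate 4 of week 3 Fas-/- held the lowest Hspa5 (480 CPM) and the highest Atf4 (258 CPM) of the 20 libraries. The other, replicate 1 of week 3 Fas+/+, with more endothelial marker counts, held the lowest Hspa5 of its group (568 CPM), but its Atf4 (187 CPM) lay within the 181 to 197 CPM of the rest and its Ddit3 (20.4 CPM) was the highest of its group. The part of endothelial cells in the bulk values was not tested.

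**Figure D4:**
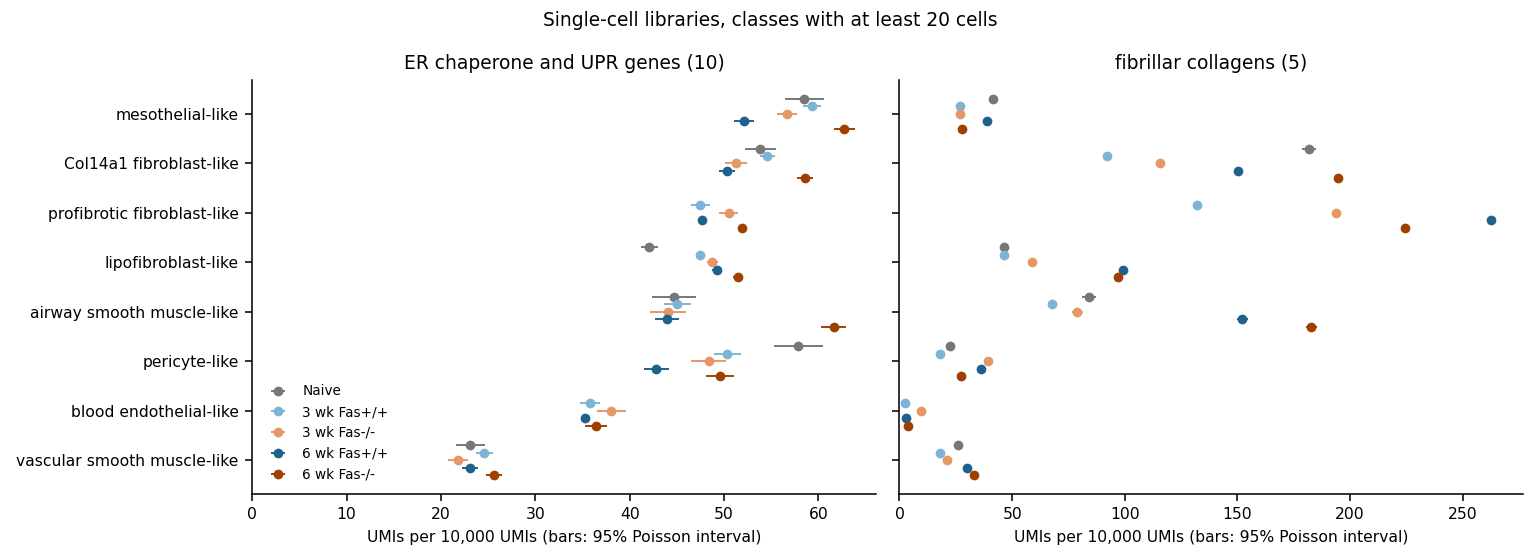
UMIs per 10,000 of the 10 members (left) and of 5 fibrillar collagens (right) in cell classes with at least 20 cells, 1 point per library with exact 95% Poisson intervals for counting error. On the left, profibrotic fibroblast-like and lipofibroblast-like cells overlap near 50 and vascular smooth muscle-like cells lie near 24, whereas on the right profibrotic fibroblast-like cells lie far above lipofibroblast-like cells. The markers that named the profibrotic class include Col1a1 and Col1a2.

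Across individual mesenchymal-like cells thinned to 3000 UMIs, cells richer in collagen tended to hold more ER members in the 4 bleomycin libraries. These cells pool classes that differ in members, collagens and cytosolic chaperones, and the part of class mix in the bins was not tested. In week 6 Fas-/-, with cells ranked by fibrillar collagen and divided into 4 bins of equal size, the lowest bin held a mean of 12.3 member UMIs per cell and the highest bin 16.4, and in week 3 Fas+/+ the means were 11.7 and 15.5. In week 6 Fas+/+ the mean went from 11.2 to 14.2, with the third bin at 14.4. The naive library had 12.7, 12.3, 12.6 and 15.3 over the 4 bins, so that only its highest bin stood above the rest. Without shared barcodes it had 14.1, 12.1, 11.4 and 13.7 over 163 cells, so that this was not seen, while the lowest and highest bins of the other 4 libraries differed by less than 0.2 from the values with all barcodes. Cytosolic and mitochondrial chaperones went the other way, from 22.1 to 14.9 in week 6 Fas-/- and from 19.6 to 14.3 in week 3 Fas+/+.

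The relation was weak cell by cell. Spearman's rho between member and collagen UMIs was 0.158 (n = 454 cells) in the naive library, 0.206 (n = 1798) and 0.217 (n = 1560) at 3 weeks and 0.192 (n = 1375) and 0.257 (n = 1835) at 6 weeks, given as a description of cells that share a library. Without shared barcodes it was -0.00684 (n = 163) in the naive library and 0.199, 0.216, 0.194 and 0.258 in the others. For the cytosolic and mitochondrial chaperones rho was -0.284, -0.181, -0.246, -0.112 and -0.176. Within profibrotic fibroblast-like cells the rho of the members was 0.183, 0.0996, 0.0787 and 0.00753 in the 4 bleomycin libraries. Xbp1, Atf4 and Ddit3 had rho between -0.0965 and 0.0416 in all 5 libraries. The 1688 mesenchymal-like cells with fewer than 3000 UMIs were left out of this step.

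**Figure D5:**
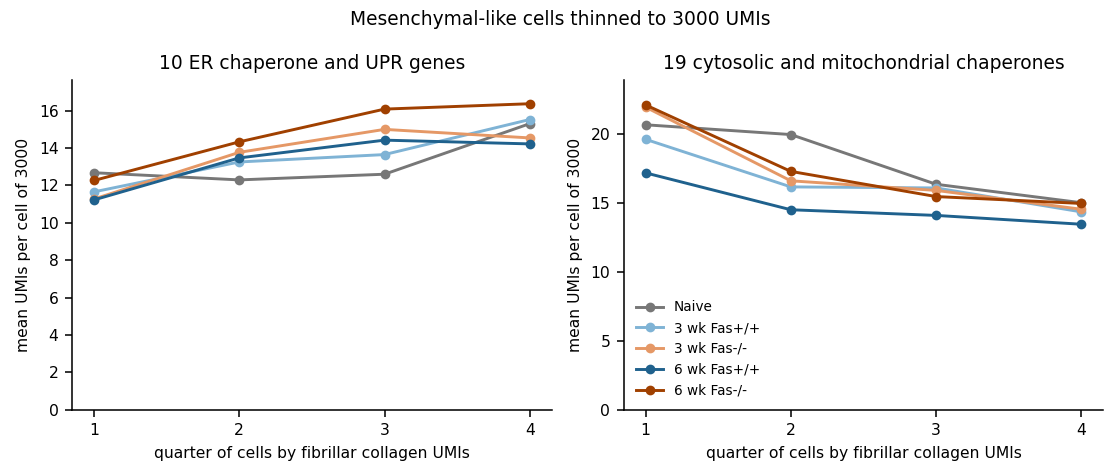
Mean UMIs per cell of the 10 members (left) and of 19 cytosolic and mitochondrial chaperones (right) in mesenchymal-like cells thinned to 3000 UMIs, in 4 equal bins of cells ranked by fibrillar collagen UMIs, 1 line per library. The left lines run from between 11.2 and 12.7 in the lowest bin to between 14.2 and 16.4 in the highest, and the right lines fall.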

How the data were processed

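Lin- cells were profiled by bulk RNA-seq and by single-cell RNA-seq. For bulk samples the authors deposited raw counts of Ensembl genes, made with htseq-count from skewer-trimmed reads and Hisat2 alignments to GRCm38; the strand setting of the counting was not given in the sources used here. For single cells the authors deposited Cell Ranger matrices of UMI counts. Their normalized bulk table was not used.

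Bulk counts were tested in R 4.3.3 with edgeR 4.0.16: filterByExpr with its minimum count of 10 (15773 of 47729 genes), TMM, quasi-likelihood F test on all 5 groups, and Benjamini-Hochberg adjustment over all genes tested, called at 0.05. Log2 CPM used a prior count of 2, and exact permutation tests were two-sided. Alternatives were DESeq2 1.42.0, other normalization, no filter, 2-group fits, a replicate block and each library left out. Correlations over 20 libraries used 100000 permutations of the libraries across all groups in scipy 1.17.1. Of these steps, only the edgeR fit was tested on simulated counts, which held no endothelial-rich libraries. A cell needed 200 to 7500 genes and no more than 20% mitochondrial UMIs. Kept cells were clustered with Seurat 5.3.0 and sctransform 0.4.2 (2963 features, 20 components, resolution 0.8). The features left out the ER genes, the cytosolic and mitochondrial chaperones, the fibrillar collagens and the dissociation-response genes. Cell type markers outside these lists were not removed. Clusters were named by the class with the highest mean log2 fold of its markers, at least 0.5, and at least 3 markers up; a cluster stayed unnamed where its 10 leading genes held more markers of another class, or none of its own while its median UMI count was far below that of its libraries (clusters 9, 14 and 22). Mesenchymal-like cells are the named fibroblast, smooth muscle and pericyte clusters plus unnamed clusters with at least 5 Col1a2 UMIs per 10,000, a threshold set after seeing the data. The sort gated out doublets before loading; for those formed in droplets there was only the limit of 7500 genes, and no caller was run. Figures were drawn with matplotlib 3.10.9.

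All 10 members were named in every comparison. Other ER genes were named, at most 3 in each list, by the smallest adjusted p among those called in week 3 Fas+/+ against naive mice, and the genes most like the members by Pearson's r of log2 CPM over the 20 libraries. The members and lists were chosen with earlier results of these data known. Gene bounds and exon lengths are from GENCODE on GRCm38, and promoters from RefSeq.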

Additional observations from a re-analysis of the deposited data

Results flagged for a closer look

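Of the 50 sets of 4 libraries examined (10 members in 5 bulk groups), 2 held a library far from the other 3 by Dixon's criterion at its 95% critical value, and chance alone marks about 1 in 20 such sets. Both lie in replicate 1 of the week 6 Fas-/- group. Canx was highest there at 369.3 CPM, with the other 3 libraries of the group between 364.4 and 364.6 CPM, so the gap is small in absolute terms. Atf4 was lowest there at 143.4 CPM, with the others between 188.5 and 192.7 CPM, and this value is also the lowest of Atf4 among the 20 libraries.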

How the results depend on the processing

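Counts of called members kept within 1.5 times the main count, or moved as follows. Without the endothelial-rich libraries, a setting chosen after the data were seen, 4 members were called for week 3 Fas+/+ against naive mice, 5 for week 3 Fas-/-, 1 for week 6 Fas-/- and 1 between genotypes at 3 weeks. For week 3 Fas-/- against naive mice 0 were called with no filter on low counts, with the replicate block or with the 2 groups alone, and for Fas-/- mice between weeks 0 with the 2 groups alone. The cause of these shifts was not tested.

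Labels number replicates alike in all groups and do not say what the numbers stand for. Correlations of the deviations of same-numbered libraries ran from -0.464 to 0.403 and in no pair of groups exceeded 0.1 for all 4. They ran from 0.0907 to 0.228 between naive and week 6 Fas-/- and from 0.0122 to 0.403 between the week 6 groups. With 4 libraries in a group, this cannot settle whether same-numbered libraries share a batch. With the replicate block, 1 member was called for Fas+/+ mice between weeks in place of 2, and 49, 31, 4, 3, 0, 0, 29, 10 and 0 other ER genes, in the order of the next paragraph.

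For the other ER genes the main counts were 56, 31, 4, 3, 0, 0, 31, 13 and 0 for week 3 Fas+/+, week 3 Fas-/-, week 6 Fas+/+ and week 6 Fas-/- against naive mice, the genotypes at 3 and at 6 weeks, Fas+/+ and Fas-/- mice between weeks, and the interaction. Of all genes, 41.3%, 32%, 5.31%, 6.48%, 0.171%, 0.0507%, 22.9%, 9.02% and 0.00634% were called in the same order. Without the endothelial-rich libraries the counts of other ER genes were 86, 62, 14, 17, 7, 3, 72, 40 and 3. As shares these were 64.2%, 46.3%, 10.4%, 12.7%, 5.22%, 2.24%, 53.7%, 29.9% and 2.24%. The shares of all genes were then 50.7%, 37.6%, 13.2%, 15%, 3.77%, 1.38%, 36.2%, 16.8% and 2.46%. The 2 groups alone gave 34, 8 and 6 for week 3 Fas+/+, week 6 Fas+/+ and week 6 Fas-/- against naive mice and 20 for Fas+/+ mice between weeks. No filter gave 2, 1 and 5, and DESeq2 gave 10, 1 and 20, for those that moved (no filter: week 6 Fas+/+ and week 6 Fas-/- against naive, Fas-/- between weeks; DESeq2: week 6 Fas-/- against naive, genotypes at 3 weeks, Fas-/- between weeks).

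With 1 library left out in turn, called members ranged from 1 to 2, 0 to 2, 0 to 0, 0 to 0, 0 to 1, 0 to 0, 1 to 2, 0 to 1 and 0 to 0 in the same order, and other ER genes from 41 to 74, 25 to 47, 0 to 6, 1 to 11, 0 to 5, 0 to 0, 18 to 62, 2 to 25 and 0 to 0. The share of all genes called is not given here for these fits, nor for the replicate block, DESeq2, no filter or the fits to the compared groups alone. Shifts in those counts are therefore not set apart from shifts over all genes. Of the single-member results 2289 kept their side of the threshold with no change of sign larger than 1 SE. Smaller changes of sign in uncalled values are among these, as for Calr in week 3 Fas+/+ against naive mice (-0.0398 to 0.106). Of the rest, 25 lost and 12 gained a call, and 4 uncalled values changed sign by more than 1 SE. Atf4 between genotypes at 3 weeks (main 0.0896) was -0.0410 without week 3 Fas-/- replicate 4 and -0.0574 without both endothelial-rich libraries, and Hsp90b1 in Fas-/- mice between weeks (main 0.0573) was -0.0558 and -0.0555. Among the other named ER genes and collagens 1 uncalled value changed sign by more than 1 SE without both, Sec11c between genotypes at 3 weeks (main -0.0142, then 0.105). With 1 library left out in turn, these ranged from -0.0410 to 0.155 and from -0.0558 to 0.127.

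The single-cell share of the members (naive, week 3 Fas+/+, week 3 Fas-/-, week 6 Fas+/+, week 6 Fas-/-) was 44.7, 48.3, 47.9, 47.2 and 52.1 per 10,000 with at most 10% mitochondrial UMIs, 42.6, 43.7, 44.5, 43.8 and 46.8 as a mean over cells, and 51.1, 54.8, 54.5, 54.1 and 59.1 with mitochondrial and ribosomal protein genes left out of the total. Thinned to 3000 UMIs, the naive library had 44.1 and the 4 bleomycin libraries 45.1, 45.5, 44.5 and 49.2, so that naive lay close to week 6 Fas+/+. Without shared barcodes, chosen after the data were seen, the naive and week 3 Fas+/+ libraries had 41.96 and 46.6.

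The ratio of profibrotic to lipofibroblast-like cells became 1.05, 1.07, 1.02 and 1.10 in the 4 bleomycin libraries with lipofibroblast-like clusters led by their own markers, also chosen after the data were seen. It was 0.974 and 0.987 at 3 and 6 weeks in Fas+/+ mice as a mean over cells, 0.976 at 3 weeks in Fas+/+ mice without shared barcodes, 0.964, 0.949 and 1.04 in the last 3 libraries after thinning, and 1.03 in week 6 Fas-/- mice with mitochondrial and ribosomal protein genes left out. With 1 single-cell library for each condition, depth sets only the counting error.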
